A study of Mus musculus with 6 samples.

Results

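The genes described here are those of the TNF, IL-6 and IL-10 cytokine axes, taken by symbol. They are 10 of the 46095 genes in the count table, namely the ligand genes Tnf, Tnfsf9, Il6 and Il10 and the receptor genes Tnfrsf1a, Tnfrsf1b, Il6ra, Il6st, Il10ra and Il10rb. BV2 cells, a mouse microglial line immortalized with a retrovirus, were either untreated (CON group) or exposed for 6 h to recombinant soluble TREM-1 (sTREM-1) at 1 μg/mL before RNA-seq. TREM-1 is a receptor of myeloid cells that amplifies inflammatory signalling, and its soluble form is found in body fluids during inflammation. Each group held 3 libraries of the same line, while the study's methods give another number per group. No vehicle for the CON group is named in the labels or methods. The comparison asks which of these cytokine and receptor genes differed after exposure to sTREM-1.

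TNF and IL-6 are pro-inflammatory cytokines that activated microglia release, and IL-10 restrains the response of the same cells. TNF acts through TNFR1, which carries a death domain, and through TNFR2, which does not. IL-6 binds its own receptor chain and then gp130, the chain that it shares with LIF and oncostatin M, and gp130 passes the signal to JAK kinases and STAT3. IL-10 uses a specific chain, IL-10R1, and a shared chain, IL-10R2, and also acts through STAT3. The ligand 4-1BBL belongs to the TNF family and binds the receptor 4-1BB.

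The libraries held 40070633 to 45877107 counts, and 14120 genes passed the filter on low counts. The quasi-likelihood test of edgeR called 4312 of these (p-values adjusted by Benjamini-Hochberg, threshold 0.05), which is 30.5% of the genes tested, 16.5% being higher and 14.1% lower in the sTREM-1 group. The balance of directions depended on the scaling, with 2324 genes higher and 1988 lower after TMM and 2026 higher and 2280 lower with library totals only. Most of these differences were small, with a median size of 0.21 on the log2 scale, and 301 genes (2.13%) were called and also changed by 1.5-fold or more. The groups of libraries did not overlap in 40.7% of the genes tested. Nothing in the sources says whether the libraries came from separate cultures on separate days, so p-values measure only the spread between these libraries. Of 10 macrophage and microglia markers, 9 were tested, 5 were higher and none lower after sTREM-1, and their summed level was 2935 to 2953 CPM (counts relative to library size, scaled by TMM) in the CON group and 3240 to 3303 CPM in the sTREM-1 group. Of these, Csf1r, the receptor for CSF1, was 0.53 higher on the log2 scale. Of 5 genes of homeostatic microglia, Sall1 was at 0 in all libraries, and the group means of P2ry12, Tmem119 and Cx3cr1 were between 0.668 and 1.77 CPM. Of 18 markers of neurons, astrocytes, oligodendrocytes, fibroblasts and other cell types, 3 passed the filter and none was called, with a summed level of 9.24 to 9.47 CPM in the CON group and 7.30 to 9.07 CPM in the sTREM-1 group. Among them, Rbfox3, Aqp4, Mog, Col1a2, Dcn and Cd3e were at 0 in all libraries.

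Of the 10 cytokine and receptor genes, 9 passed the filter and 5 of these were called (55.6%, against 30.5% of all genes tested). Without sTREM-1 replicate 1, 3 of the 9 were called, and Tnfrsf1b and Il6ra were lost. Il6 fell, and Tnfrsf1a, Tnfrsf1b, Il6ra and Tnfsf9 rose by small amounts. Il10, Il10ra, Il10rb and Il6st did not pass the threshold, and Tnf could not be tested because it is listed at 0 in every library. The groups did not overlap in 6 of the 9 genes, against 40.7% of all genes tested, and these were the 5 called genes and Il10rb. Il6 was the 1 gene of the 9 that was called and changed by 1.5-fold or more, against 2.13% of all genes tested. The median difference of the 9 genes was 0.08 on the log2 scale, and that of all genes tested was -0.0017.

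**Figure D1:**
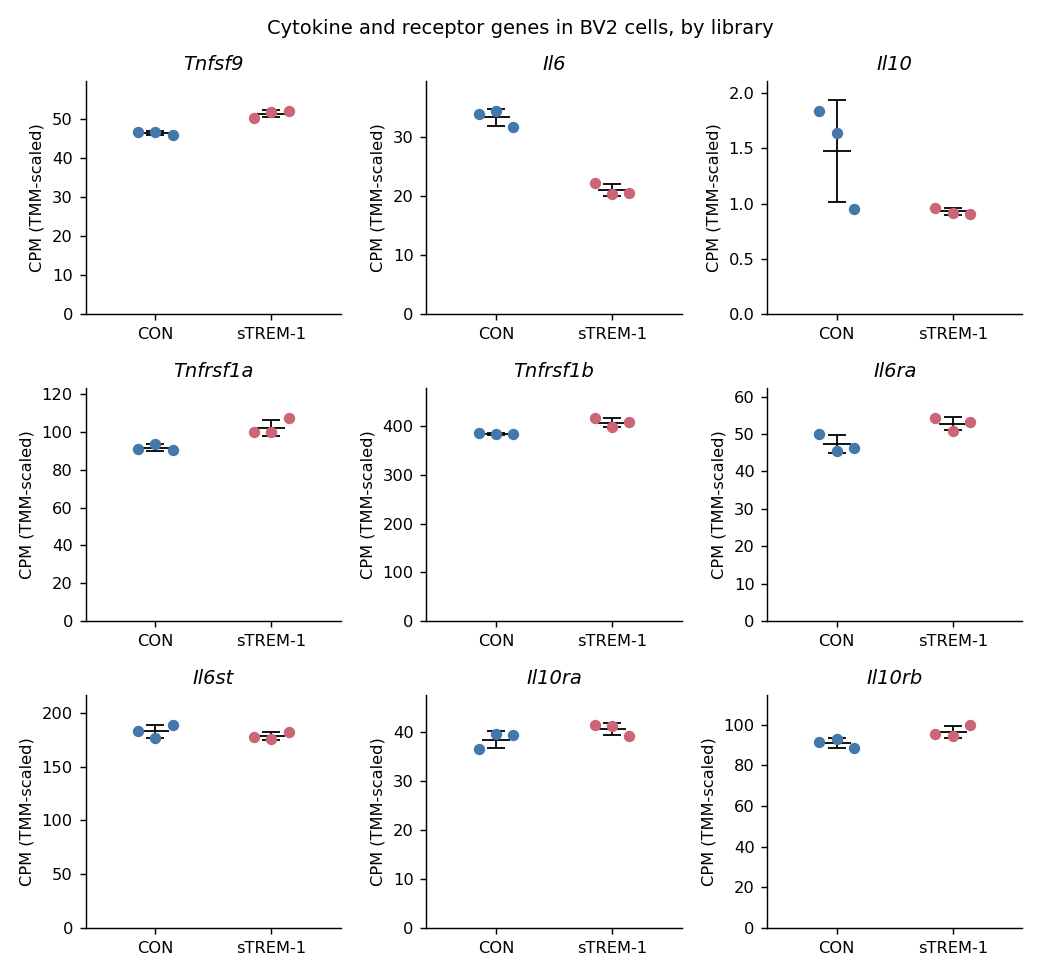
CPM (TMM-scaled, linear axis from 0) of the 9 genes with counts, with 1 point per library, horizontal lines at the mean and bars of 1 SD over 3 libraries. The 3 Il6 points of the sTREM-1 group lie at 20.2 to 22.2 CPM, all below the CON points, while the Il10 points of the CON group spread from 0.955 to 1.83 CPM.

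Il6, on chromosome 5, encodes interleukin-6. Its level was 33.8, 34.2 and 31.6 CPM in CON replicates 1 to 3 and 22.2, 20.2 and 20.5 CPM in sTREM-1 replicates 1 to 3, from raw counts of 1386, 1404 and 1289 and of 1012, 863 and 814. All libraries of the sTREM-1 group were below all libraries of the CON group, and the gap between the groups was larger than the spread within either. The mean fell from 33.2 ± 1.44 to 21 ± 1.03 CPM (SD, n = 3 per group), which is 36.8% lower. The log2 fold change was -0.66 (SE 0.06, 95% confidence interval -0.78 to -0.54) with an adjusted p-value of 2.8e-10 in edgeR's quasi-likelihood test. In absolute size it exceeded 94.7% of the differences of all genes called. These are RNA levels of whole cultures, in which fewer cells with Il6 RNA and less Il6 RNA per cell cannot be told apart.

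The promoter of Il6 is shown because this gene had the largest called difference of the 10, and those of Tnfrsf1a and Tnfrsf1b because both TNF receptor genes rose. The windows are the 250 bases before the RefSeq gene start in mouse build GRCm38.p6, written 5′ to 3′ on the strand of the gene, and cover chr5:30012864-30013113 (plus strand), chr6:125349473-125349722 (plus strand) and chr4:145246871-145247120 (minus strand). Capitals mark matches to the motifs searched.
Il6: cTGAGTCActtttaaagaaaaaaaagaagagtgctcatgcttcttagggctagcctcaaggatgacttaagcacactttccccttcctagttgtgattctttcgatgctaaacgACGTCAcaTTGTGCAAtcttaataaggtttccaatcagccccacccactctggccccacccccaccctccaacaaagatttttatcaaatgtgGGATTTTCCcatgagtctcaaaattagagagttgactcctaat
Tnfrsf1a: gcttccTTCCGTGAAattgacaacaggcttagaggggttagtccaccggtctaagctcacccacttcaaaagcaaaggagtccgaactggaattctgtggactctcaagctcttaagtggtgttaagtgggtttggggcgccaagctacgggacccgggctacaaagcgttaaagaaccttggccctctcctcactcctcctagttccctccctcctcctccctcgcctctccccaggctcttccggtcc
Tnfrsf1b: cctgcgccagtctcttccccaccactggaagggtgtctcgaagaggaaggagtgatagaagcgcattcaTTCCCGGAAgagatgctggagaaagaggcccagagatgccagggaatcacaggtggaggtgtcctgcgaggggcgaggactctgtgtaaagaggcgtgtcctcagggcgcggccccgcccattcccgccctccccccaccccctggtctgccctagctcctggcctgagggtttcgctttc

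The motifs were chosen with the known control of Il6 in mind, and a match is a description of the letters, not a measured site. Positions count back from the gene start, with -1 as the last base of the window. The Il6 window held the NF-kB core GGNNTTTCC at -43 to -35, the C/EBP motif TTGCNNAA on the reverse strand at -128 to -121, the CRE half-site TGACGT on the reverse strand at -136 to -131 and the AP-1 motif TGANTCA at -249 to -243. These matches did not overlap each other. Searched on both strands, they occurred in 4.93%, 9.56%, 6.47% and 6.75% of 32851 RefSeq windows of the same length. Only the Il6 window held all 4, but the motifs were chosen with Il6 in mind, so no conclusion is drawn from this. The STAT motif TTCNNNGAA, found in 7.02% of windows on either strand, was at -244 to -236 in the Tnfrsf1a window and at -181 to -173 in the Tnfrsf1b window, and was not among the letters of the Il6 window. The Tnf window held a TATA box, TATAAA, at -29 to -24, a motif found on the sense strand of 7.59% of windows. The Il6ra and Il6st windows held none of the 6 motifs. Of the 10 genes, 6 matched the promoter table, and Tnfsf9, Il10, Il10ra and Il10rb did not.

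Il10, on chromosome 1, encodes interleukin-10 and was the lowest of the 9 genes with counts. Its level was 1.83, 1.63 and 0.955 CPM in CON replicates 1 to 3 and 0.963, 0.915 and 0.907 CPM in sTREM-1 replicates 1 to 3. CON replicates 1 and 2 were above the sTREM-1 libraries, and CON replicate 3 lay within their range, so the groups overlapped. The raw counts were 75, 67 and 39 in the CON group and 44, 39 and 36 in the sTREM-1 group. In the CON group the SD was 31.2% of the mean, whereas counting error alone would give 12.9%. In the sTREM-1 group, with a mean of 39.7 counts, the SD was 3.26% of the mean, less than counting error alone would give. The log2 fold change was -0.66 (SE 0.30, 95% confidence interval -1.27 to -0.05), with an unadjusted p-value of 0.0338 and an adjusted p-value of 0.0944 in edgeR's quasi-likelihood test, so Il10 did not pass the threshold. The fold change had the size of that of Il6, with an SE several times larger. Without CON replicate 3 the log2 fold change was -0.90 and the gene passed (adjusted p-value 0.0285 in edgeR), so this library decided the call.

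Tnfsf9, on chromosome 17, encodes the ligand 4-1BBL. Its level was 46.7, 46.8 and 45.9 CPM in the CON group and 50.3, 51.7 and 51.9 CPM in the sTREM-1 group. The libraries of each group lay close together and the groups did not overlap. The mean rose from 46.5 ± 0.505 to 51.3 ± 0.878 CPM (SD, n = 3 per group), a log2 fold change of 0.14 (SE 0.04) with an adjusted p-value of 0.0094 in edgeR's quasi-likelihood test. The GENCODE M21 annotation places the lincRNA Gm11110 on the opposite strand across 192 of its exon bases (14.9%), and without the strand of the counting, reads there cannot be assigned to one or the other. Tnfrsf9, which encodes the receptor 4-1BB, also rose, from 46.1 ± 1.58 to 58.8 ± 0.286 CPM, a log2 fold change of 0.35 (SE 0.04) with an adjusted p-value of 8.5e-08 in edgeR.

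Tnf, on chromosome 17, had 0 counts in all 6 libraries. Its neighbours were examined after this was seen, in the order of the RefSeq genes of GRCm38.p6. Tnf lay within 30 consecutive protein-coding genes, from Vwa7 to H2-Q2, that each had 6 counts or fewer summed over the 6 libraries. Of these, 28 had none and the other two, Ddx39b and H2-Q1, had 1 count each. The genes bordering them were Vars with 186 counts and H2-Q4 with 6051. These limits follow from the cut-off of 6 counts, and several genes beyond them were also near 0. Beyond Vars, D17H6S56E-5 had 823 counts, Lsm2 18, Hspa1l and Hspa1a 0 and Hspa1b 1. Beyond H2-Q4, H2-Q6 had 0 counts, H2-Q7 1, H2-Q10 and Pou5f1 0 and Tcf19 59. Of all 20463 protein-coding genes matched to the table, 32.1% had 0 counts. The genes without counts included Csnk2b and Prrc2a, which are broadly expressed across cell types, and Aif1, which encodes the microglial protein IBA1. The catalytic partners of the casein kinase subunit Csnk2b lie elsewhere in the genome and were well covered, with 7041 to 8335 counts per library for Csnk2a1 and 3214 to 3626 for Csnk2a2. Prrc2b and Prrc2c, relatives of Prrc2a, had 15343 to 17548 and 32120 to 37323 counts per library. The value of Tnf is therefore given only as listed at 0, with no limit and no fold change, and what gave these values was not tested.

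**Figure D2:**
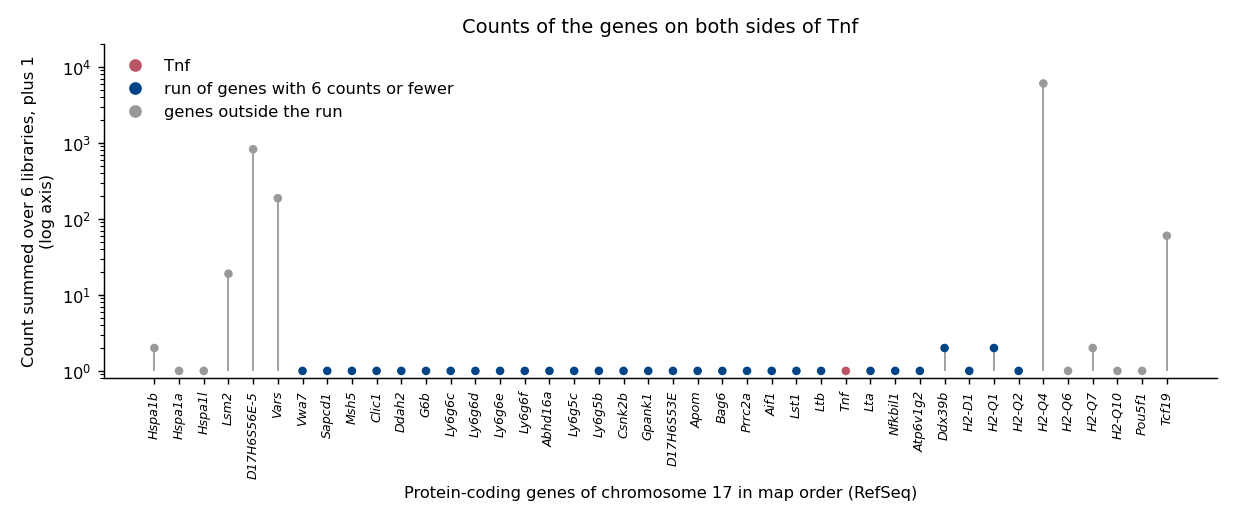
Counts summed over the 6 libraries, plus 1 (log axis), of the protein-coding genes on both sides of Tnf in map order. Tnf and its neighbours from Vwa7 to H2-Q2, 30 genes in all, lie at 0 or 1 count, between Vars with 186 counts and H2-Q4 with 6051. Some genes beyond these limits, such as Hspa1a and H2-Q6, also lie at 0.

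Both TNF receptor genes rose. Tnfrsf1a, on chromosome 6, encodes TNFR1, and its level was 90.8, 93.7 and 90.6 CPM in the CON group and 99.9, 99.8 and 107 CPM in the sTREM-1 group. The groups did not overlap, and sTREM-1 replicate 3 was the highest library. The mean rose from 91.7 ± 1.77 to 102 ± 4.26 CPM (SD, n = 3 per group), which is 11.6% higher, with a log2 fold change of 0.16 (SE 0.03) and an adjusted p-value of 0.00073 in edgeR's quasi-likelihood test. Tnfrsf1b, on chromosome 4, encodes TNFR2, and its level was 387, 384 and 383 CPM in the CON group and 416, 398 and 409 CPM in the sTREM-1 group. The CON libraries were nearly equal, and all sTREM-1 libraries were above them. The mean rose from 385 ± 1.91 to 408 ± 9.24 CPM, which is 5.95% higher, with a log2 fold change of 0.08 (SE 0.02) and an adjusted p-value of 0.0071 in edgeR. Without sTREM-1 replicate 1 the log2 fold change of Tnfrsf1b was 0.067 and it no longer passed (adjusted p-value 0.0799 in edgeR).

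Of the chains of the IL-6 receptor, Il6ra rose and Il6st did not pass the threshold. Il6ra, on chromosome 3, encodes the chain that binds IL-6, and its level was 50.1, 45.5 and 46.2 CPM in the CON group and 54.2, 50.8 and 53.1 CPM in the sTREM-1 group. The groups did not overlap, although CON replicate 1 lay just under sTREM-1 replicate 2. The mean rose from 47.3 ± 2.49 to 52.7 ± 1.73 CPM (SD, n = 3 per group), with a log2 fold change of 0.16 (SE 0.05) and an adjusted p-value of 0.0081 in edgeR's quasi-likelihood test. Il6ra no longer passed without CON replicate 2 (0.13, adjusted p-value 0.0537 in edgeR) or without sTREM-1 replicate 1 (0.14, adjusted p-value 0.0560). The antisense gene Gm42809 shares 242 of its exon bases (2.80%). Il6st, on chromosome 13, encodes gp130, and its level was 183, 177 and 189 CPM in the CON group and 177, 176 and 183 CPM in the sTREM-1 group. The groups overlapped, and the log2 fold change was -0.03 (SE 0.03, 95% confidence interval -0.09 to 0.03) with an adjusted p-value of 0.419 in edgeR.

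Neither chain of the IL-10 receptor passed the threshold. Il10ra, on chromosome 9, encodes IL-10R1, and its level was 36.4, 39.5 and 39.3 CPM in the CON group and 41.3, 41.1 and 39.1 CPM in the sTREM-1 group. The groups overlapped, and the log2 fold change was 0.08 (SE 0.05, 95% confidence interval -0.02 to 0.18) with an adjusted p-value of 0.25 in edgeR's quasi-likelihood test. Il10rb, on chromosome 16, encodes IL-10R2, which also serves the receptors of IL-22 and type III interferons, and its level was 91.6, 93.0 and 88.4 CPM in the CON group and 95.3, 94.3 and 99.7 CPM in the sTREM-1 group. The groups did not overlap, but the log2 fold change of 0.08 (SE 0.03, 95% confidence interval 0.01 to 0.15) had an adjusted p-value of 0.068 in edgeR. The annotated gene Gm21970 runs on the same strand across 569 exon bases of Il10rb (14.9%), where reads may have been split between them. Of the 6 receptor genes, 3 were called higher, against 16.5% of all genes tested. Of these 3, Tnfrsf1b and Il6ra were not called without sTREM-1 replicate 1.

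**Figure D3:**
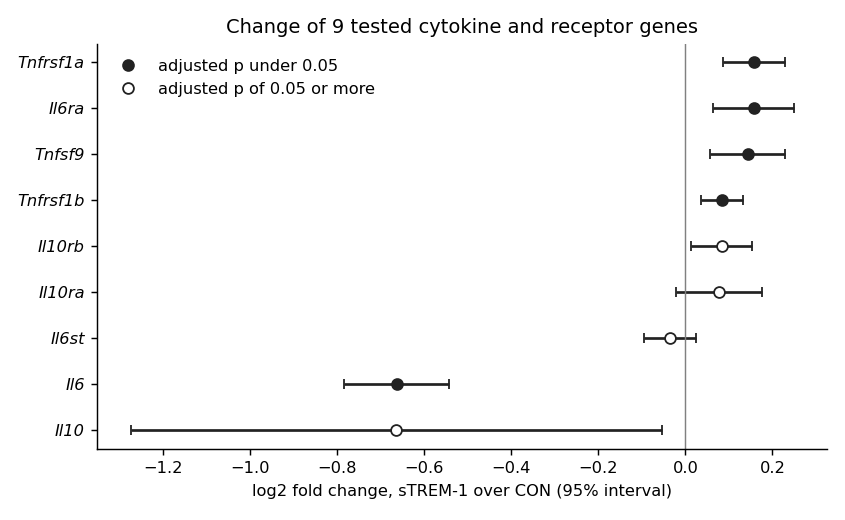
Log2 fold change (sTREM-1 minus CON) of the 9 tested genes with 95% confidence intervals from edgeR's quasi-likelihood fit of 3 against 3 libraries. Il6 (-0.66) lies far below 0 with a narrow interval, Il10 (-0.66) has the widest interval, and the receptor genes lie between -0.03 and 0.16.

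The balance between the paired receptor genes was given by the ratio of their counts within each library, which needs no scaling. The ratio of Il6ra to Il6st was 0.273, 0.257 and 0.245 in the CON group and 0.306, 0.288 and 0.291 in the sTREM-1 group. The groups did not overlap, with means of 0.258 ± 0.0142 and 0.295 ± 0.00944 (SD, n = 3 per group, exact two-sided permutation p = 0.1, the smallest that 3 against 3 allow). The ratio of Tnfrsf1b to Tnfrsf1a was 4.26, 4.10 and 4.23 in the CON group and 4.17, 3.99 and 3.81 in the sTREM-1 group, and the groups overlapped (exact p = 0.2). The ratio of Il10ra to Il10rb was 0.422 ± 0.0236 in the CON group and 0.420 ± 0.0247 in the sTREM-1 group (SD, n = 3 per group, exact p = 1.0). These were 3 of 5 planned ratios, those with Tnf being left out, and none can pass 0.05 in this design. Counts of different genes also depend on their lengths, so a ratio is read between groups only.

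**Figure D4:**
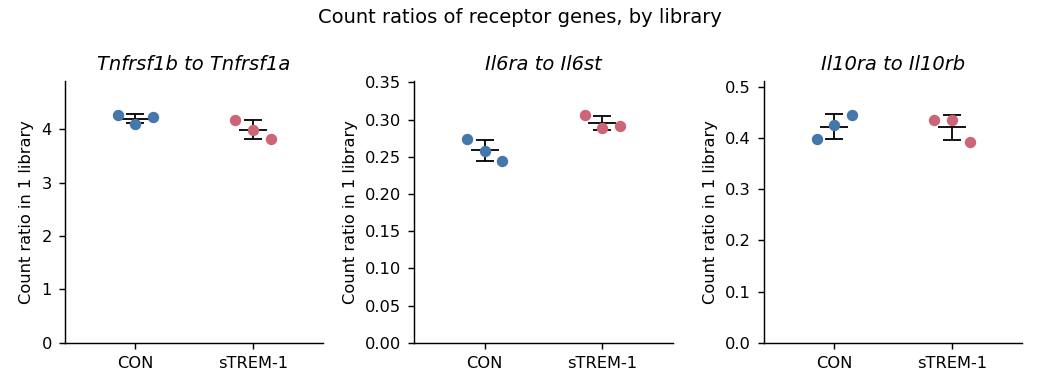
Ratio of raw counts within each library (linear axes from 0) for the receptor genes of TNF, IL-6 and IL-10, with 1 point per library, horizontal lines at the mean and bars of 1 SD over 3 libraries. The points of Il6ra to Il6st do not overlap between groups (0.245 to 0.273 in CON, 0.288 to 0.306 in sTREM-1), while those of the other two ratios do.

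Levels between genes were compared as TMM-scaled RPKM, that is CPM per kilobase of merged exons. In the CON group Tnfrsf1b was the highest at 101 RPKM, followed by Tnfsf9 at 36.0 ± 0.391 and Tnfrsf1a at 35.4 ± 0.681 RPKM (SD, n = 3), which lay within their spread. Then came Il10rb at 23.9, Il6st at 16.5, Il6 at 13.7, Il10ra at 11, Il6ra at 5.47 and Il10 at 1.12 RPKM. In the sTREM-1 group Il6 was at 8.64 RPKM, below Il10ra at 11.6 RPKM, and the order of the other genes was as in the CON group. The length chosen bears on this order. With the longest protein-coding transcript, an alternative added after seeing the data, Il10rb was at 49.2 and Tnfrsf1a at 42.5 RPKM in the CON group, both above Tnfsf9.

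The partners of these genes were taken from 8 lists of pathway genes compiled by hand. Each list is described by its counts beside the shares of all genes tested, 16.5% higher and 14.1% lower. In the TNF receptor signalling list, 7 of 27 genes were higher, 4 lower and 16 not called, with a median log2 fold change of 0.0032. Tnfaip3, which encodes the NF-kB inhibitor A20, rose from 102 ± 1.82 to 126 ± 0.901 CPM (0.32 on the log2 scale), Rbck1, a subunit of the linear ubiquitin ligase, rose by 0.22, and Cyld, a deubiquitinase that restrains NF-kB, rose by 0.21. Map3k5, which encodes the kinase ASK1, fell by 0.47, Chuk, which encodes IKKα, fell by 0.18, and Otulin, a deubiquitinase for linear chains, fell by 0.21 with overlapping groups and was not called by DESeq2 (adjusted p-value 0.0942). Of 6 genes of TNF shedding, 4 were tested, and 2 of these were higher and none lower. This count was unstable, with 2 higher and 1 lower under library totals, with no filter on low counts and without CON replicate 1, 2 of each without sTREM-1 replicate 3, 1 of each without CON replicate 2, and 1 called without CON replicate 3 or without sTREM-1 replicate 1. Adam17, which encodes the protease that releases TNF and its receptors from the cell surface, rose from 239 ± 3.85 to 291 ± 2.74 CPM, a log2 fold change of 0.29 (SE 0.02) with an adjusted p-value of 1.8e-10 in edgeR. Frmd8, which stabilizes the ADAM17 complex, rose from 32.2 to 35.6 CPM (adjusted p-value 0.0246 in edgeR), but did not pass without CON replicate 2, CON replicate 3 or sTREM-1 replicate 1 (adjusted p-values 0.0756, 0.0740 and 0.139). Rhbdf2, of the same list, was lower without passing the threshold (log2 fold change -0.090, adjusted p-value 0.0675 in edgeR). Its level was 103 ± 2.68 CPM in the CON group and 96.6 ± 5.77 CPM in the sTREM-1 group. Rhbdf1 was below the filter, with 6, 10 and 15 counts in CON replicates 1 to 3 and 1 in each sTREM-1 library.

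In the list of genes that control the decay and stability of cytokine mRNA, 9 of 16 were higher, 3 lower and 4 not called, with a median log2 fold change of 0.11. Without CON replicate 1 6 were called, with 5 higher and 1 lower, and without sTREM-1 replicate 2, 8 were called. Zfp36, which encodes tristetraprolin, a protein that targets cytokine mRNAs such as Tnf for decay, rose from 108 ± 1.75 to 120 ± 1.34 CPM (0.15 on the log2 scale). Mapkapk2, which encodes the kinase MK2 that inhibits tristetraprolin, rose by 0.16, Zc3h12c, a relative of the regnase genes, by 0.16, and Cnot1, the scaffold of the CCR4-NOT deadenylase, by 0.13. Zc3h12a, which encodes regnase-1, a nuclease that cleaves Il6 mRNA, fell by 0.19, Tia1, a translational repressor, fell by 0.12, and Zfp36l2, a relative of Zfp36, fell by 0.088. These falls did not hold in every alternative. Zc3h12a did not pass without CON replicate 1 (adjusted p-value 0.0758 in edgeR), Zfp36l2 without CON replicate 1 or sTREM-1 replicate 2 (0.0991 and 0.0543), and Tia1 without CON replicate 2, sTREM-1 replicate 2 or sTREM-1 replicate 3 (0.184, 0.0735 and 0.0832). The list holds both stabilizing and destabilizing factors, so its count gives no single direction for mRNA decay.

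In the gp130 and IL-6 receptor signalling list, 6 of 16 genes were higher, 3 lower and 7 not called, with a median log2 fold change of 0.058. Stat3, the main STAT of IL-6 and IL-10, rose from 116 ± 0.612 to 131 ± 2.39 CPM (0.17 on the log2 scale), the adaptor gene Grb2 rose by 0.26, and the kinase genes Tyk2 and Jak1 rose by 0.20 and 0.081. Cebpb, which encodes a transcription factor that binds the C/EBP motif, fell from 251 ± 20.1 to 211 ± 9.18 CPM (0.25 lower on the log2 scale), Cebpd fell by 0.18, and the phosphatase gene Ptpn11 fell by 0.071. Of these, Ptpn11 kept its call in 6 of 12 alternatives, with adjusted p-values of up to 0.111, and lost it without sTREM-1 replicates 1 or 2, without any one CON library and with no filter on low counts. Cebpd was not called without CON replicate 1 or sTREM-1 replicate 1 (adjusted p-values 0.209 and 0.110 in edgeR), nor Jak1 without CON replicate 1 (0.0899). Socs3, an inhibitor of gp130 signalling that STAT3 induces, was at 75.1 ± 1.76 CPM in the CON group and 70.4 ± 2.05 CPM in the sTREM-1 group, with a log2 fold change of -0.094 and an adjusted p-value of 0.0566 in edgeR, which ran from 0.0234 to 0.212 over the alternatives.

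Of 14 other gp130 family ligand and receptor genes, 6 were tested, of which 2 were lower, none higher and 4 not called, with a median log2 fold change of -0.22. Osm, which encodes oncostatin M, fell from 50.9 ± 1.03 to 41.2 ± 1.64 CPM (0.31 lower on the log2 scale), and Ebi3, a subunit of IL-27 and IL-35, fell by 0.12. Of 16 targets and relatives of IL-10, 9 were tested, and 4 were higher, 2 lower and 3 not called, with a median of 0.10. Il1rn, which encodes the IL-1 receptor antagonist, fell from 218 ± 5.92 to 122 ± 5.96 CPM, a log2 fold change of -0.84 (SE 0.03) with an adjusted p-value of 3.2e-18 in edgeR. Il4ra, a chain of the IL-4 receptor, fell by 0.13, but kept its call in 8 of 12 alternatives. It was not called by DESeq2 (adjusted p-value 0.0579), nor in edgeR without CON replicate 1, sTREM-1 replicate 1 or sTREM-1 replicate 2 (0.252, 0.220 and 0.0594). Hmox1, which encodes heme oxygenase 1, rose by 0.26, the stress gene Ddit4 rose by 0.42, and Nfil3, a transcription factor gene, rose by 0.14. The members of this list thus moved in both directions.

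Of 16 other ligand genes of the TNF superfamily, 5 passed the filter, with 1 higher, 1 lower and 3 not called. Another 7 are listed at 0, among them Lta and Ltb, which lie in the run of genes around Tnf and whose values, like that of Tnf, are not read as levels. Tnfsf13b, which encodes the B-cell factor BAFF, rose from 6.13 ± 0.593 to 8.83 ± 0.586 CPM (0.53 on the log2 scale). Tnfsf18, which encodes the ligand of GITR, fell from 2.38 ± 0.401 to 1.12 ± 0.192 CPM (1.08 lower on the log2 scale), from 87 to 116 counts per library in the CON group and 41 to 53 in the sTREM-1 group. Of 26 other receptors of the superfamily, 16 were tested, with 4 higher, 4 lower and 8 not called. Without sTREM-1 replicate 2, 2 of them were higher and 4 lower. Besides Tnfrsf9, Tnfrsf14, the receptor HVEM, rose by 0.60 and Tnfrsf11a, which encodes RANK, rose by 0.26, but was not called without sTREM-1 replicate 2 (0.20, adjusted p-value 0.0720 in edgeR). Cd40, a costimulatory receptor, fell from 46.2 ± 0.748 to 37.4 ± 1.65 CPM (0.31 lower on the log2 scale). Tnfrsf23 and Tnfrsf26, related genes whose reads may be split between them, fell by 0.21 and 0.16. Tnfrsf22, of the same list, was 0.13 higher on the log2 scale and did not pass the threshold (adjusted p-value 0.0602 in edgeR).

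**Figure D5:**
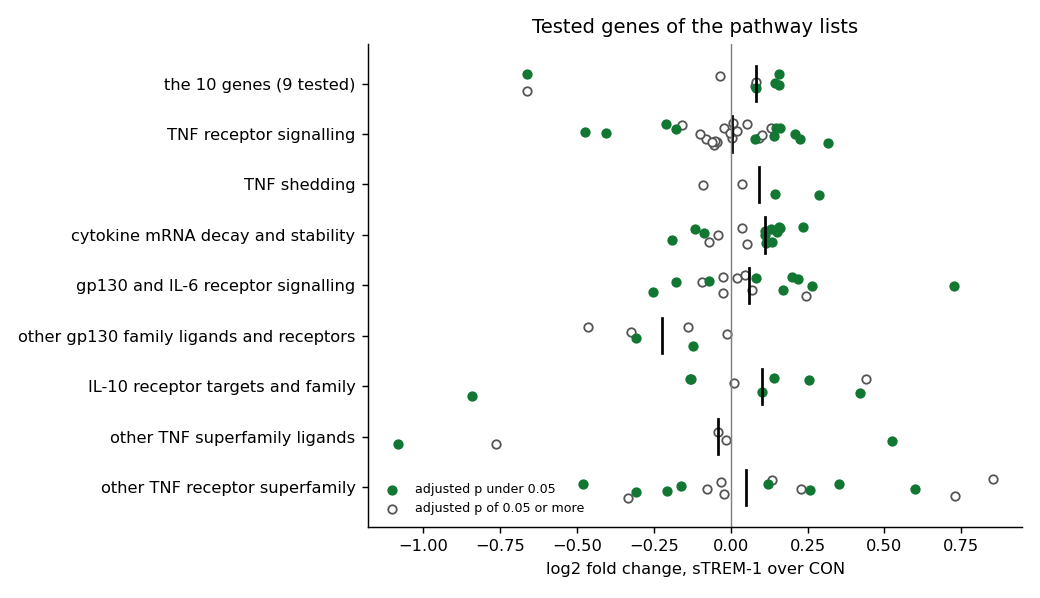
Log2 fold change (sTREM-1 minus CON) of each tested gene in the 8 pathway lists and, in the top row, of the 9 cytokine and receptor genes, with filled points for called genes and vertical bars at the median of each row. Called genes lie on both sides of 0 in 6 of the 8 lists, with Tnfsf18 (-1.08) and Il1rn (-0.84) the lowest, while the 2 shedding genes called with all libraries and TMM are both above 0 and the 2 called genes of the other gp130 family are both below.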

How the data were processed

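RNA of BV2 cells was sequenced in 3 CON and 3 sTREM-1 libraries. The authors deposited raw counts per gene symbol, not normalized, for all 6 libraries. The methods name FastQC for read quality, RSEM for quantification and edgeR for differential expression. The submitters' processing notes name HISAT2 2.0.4 and the human builds hg 19 and GRCh 38, although the symbols are those of mouse, so the counted gene models are given without coordinates. The chromosomes printed are those of GENCODE M21 and the promoter windows those of RefSeq GRCm38.p6. The annotation and the strand of counting are not given in the sources used here.

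Low counts were removed with filterByExpr at a minimum of 10 counts. TMM scaling and a quasi-likelihood fit of both groups without covariates followed, in edgeR 4.0.16 under R 4.3.3, and p-values were adjusted over all 14120 genes tested. Totals of 40070633 to 45877107 counts make counting error small except for genes of few counts such as Il10. Gene lengths and overlaps also came from GENCODE M21. Ratios used exact permutation tests. The members and lists were chosen with earlier results of these data known. Of each list, at most 3 called genes per direction of smallest p are named, with Tnfrsf9, Adam17, Zfp36, Socs3, Stat3, Jak1 and Tyk2 whatever their values. A gene that this rule selects is not reported here. Other genes named, such as markers and neighbours of Tnf, fall outside this rule and were chosen after their values were seen. The script was tested on simulated data. Alternatives were RLE size factors, library totals, other filters, DESeq2 1.42.0, a replicate block, leaving out each library and, added after seeing the data, another gene length and a 1.5-fold minimum.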

Additional observations from a re-analysis of the deposited data

How the results depend on the processing

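Il6, Tnfrsf1a and Tnfsf9 kept their direction and call under all 12 alternatives of the test, with log2 fold changes of -0.71 to -0.64 for Il6, and 5 of the 9 genes were called with RLE size factors, library totals, other filters, DESeq2 and the replicate block. Leaving out 1 library gave 3 to 6 called, with log2 fold changes of -0.90 to -0.48 for Il10, 0.067 to 0.099 for Tnfrsf1b and 0.13 to 0.20 for Il6ra. The log2 difference of the Il10ra to Il10rb ratio, -0.0060 with all libraries, ran from -0.049 to 0.044 and was reversed without CON replicate 3 (0.032) and without sTREM-1 replicate 3 (0.044). The cause was not tested. A minimum of 1.5-fold, added after seeing the data, left 301 of 4312 genes and 1 of the 9. DESeq2 called 4027 genes. The fit with the replicate block called 4613 genes, and in it the TNF shedding list had 2 higher and 1 lower. Deviations of same-numbered libraries correlated at -0.033 to -0.014, and 0 of 6 libraries correlated best with their own number. No pairing by number was seen, but with 3 libraries per group these values cannot decide whether one exists. Counting error was largest for Il10, with 36 to 75 counts per library. It was below the spread of Il10 in the CON group and above that in the sTREM-1 group. With the longest transcript in place of merged exons, levels per length moved by more than 1 SD in 3 genes, Tnfrsf1a, Il10rb and Il6st.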
